A study of Mus musculus with 36 samples.

Results

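Fatty acids and the sphingolipids of myelin are built by a chain of enzymes, and 38 mouse genes of that chain were followed across 36 expression arrays of the mouse forebrain. They comprise enzymes that supply, desaturate, lengthen and activate fatty acids, enzymes that make ceramide, the fatty acid 2-hydroxylase Fa2h, and enzymes that put head groups on ceramide or carry the glycolipids formed. Members were matched by the gene symbol of the array's probe sets, the short probe groups that report a transcript, and each gene was represented by its probe set with the highest mean over all arrays. Of the 38, 36 had a probe set that names that gene alone, drawn from 87 such probe sets, and 26 of the 36 had several. Acsl1, and Cers1, which shares its probe set with another gene, were not analysed here. Sgms2 averaged 3.97 log2 over bound arrays and 3.68 log2 over unbound ones and missed the filter on low values, so 35 members were tested among 13924 genes (18193 before the filter).

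All animals were adult heterozygous Cnp–eGFP-L10a mice on C57BL/6, whose ribosomes carry a green fluorescent tag in cells that use the promoter of Cnp, a myelin enzyme. Each of the 18 animals gave a bound fraction, the immunoprecipitated ribosomes and their messenger RNA, and an unbound fraction, the RNA left in the supernatant, which also holds neurons and other glia. For sleep, 6 animals were taken in the light phase, at about 3 to 5 pm, having slept for 75% or more of the last 6 to 7 h. For waking, 6 were taken in the dark phase, at about 3 to 5 am, having been awake for 70% or more of that time. For sleep deprivation, 6 were held awake with new objects during 4 h of light. Waking therefore differs from sleep, and from sleep deprivation, in clock time as well. In both of these comparisons the effects of state and of clock time cannot be told apart. RNA of the fractions was purified with different kits, so fraction and kit cannot be told apart either. Values are log2 signals, differences are log2 differences, and a gene was called where limma's Benjamini-Hochberg adjusted p over all tested genes lay below 0.05. The number of arrays, 6 per group, limits the precision.

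Mean signals of the groups lay between 5.91 and 5.93 log2 for bound and between 6.34 and 6.41 log2 for unbound arrays, and the mean correlation of each array with the others of its group was at least 0.972. Within a group the array means varied little (SD 0.0029 to 0.0099). The unbound waking mean, 6.34, lay below those of unbound sleep (6.40) and sleep deprivation (6.41). State and this array-wide offset cannot be told apart, and its source was not tested. Sex-linked genes set 3 animals apart from the others (waking animals 3 and 5, sleep deprived animal 11), and the labels give no sex. Member results that lost their call without these animals are given with and without them. Markers and genes around the pathway are given with all animals only. All 7 measured mature oligodendrocyte markers were higher in the bound arrays, from 1.09 (Mbp) to 3.94 (Mog). All 7 neuron, 7 astrocyte and 6 microglia markers and the 4 tested endothelium markers were lower, as were 4 of 5 precursor markers. The bound fraction therefore carried the labelled cell type's markers.

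Myelin is unusually rich in galactosylceramide and its sulfated form, sulfatide. Their ceramide carries very long, often 2-hydroxylated acyl chains, which depend on the elongase Elovl1, the ceramide synthase Cers2 and Fa2h before Ugt8a adds galactose and Gal3st1 adds sulfate. Fatty acids for these lipids are made from acetyl-CoA by Acly, the carboxylases and Fasn, and desaturases and elongases of several substrate classes then shape the chains. Within these families, related enzymes handle different chain lengths and are used by different brain cells.

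Every one of the 35 tested members differed between the fractions, 22 higher in the bound arrays and 13 lower. Such calls were common on these arrays: 83.6% of all genes were called, 25.5% higher and 58.1% lower. The members' median difference was 0.62, against −0.35 over all genes. With the mean of each gene's probe sets in place of the brightest, 19 members were higher and 16 lower, and the medians were 0.18 and −0.39. Quantile normalization over all 36 arrays moved the all-gene median to 0.08 and left 22 members higher and 11 lower, with 6157 higher and 5329 lower genes in place of 3555 and 8087. Under that scaling Acacb was no longer called (−0.23, adjusted p = 0.0678) and Degs2 changed sign (0.17, adjusted p = 0.0981). In bulk fractions, fewer cells of a type and less RNA per cell cannot be told apart.

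The route to sulfatide was higher in the bound fraction at each of its late steps. Fa2h ran from 12.58 to 13.01 log2 (median 12.81) in the 18 bound arrays and from 8.12 to 9.36 (median 8.98) in the unbound arrays, with no overlap. Its difference was 3.87 (SE 0.0571), a 14.6-fold excess seen in 18 of 18 animals (adjusted p = 8.94e-22). Cers2, which makes ceramides with very long chains, lay between 10.82 and 11.45 log2 (median 11.21) in the bound and between 6.36 and 8.17 (median 7.66) in the unbound arrays, a difference of 3.59 (SE 0.0954, 12.1-fold). The groups were again apart in every array. Ugt8a, the galactosyltransferase, spanned 11.82 to 12.37 log2 (median 12.07) against 7.59 to 9.66 (median 9.29), a difference of 2.86 (SE 0.0867, 7.27-fold). Gal3st1, the sulfotransferase, spanned 7.19 to 8.31 log2 (median 7.60) against 5.21 to 6.30 (median 5.65), a difference of 2.04 (SE 0.0921, 4.10-fold). Gltp, a cytosolic glycolipid transfer protein, spanned 11.89 to 12.43 log2 (median 12.32) against 8.52 to 9.56 (median 9.26), a difference of 3.04 (SE 0.0565, 8.21-fold). All 18 animals agreed in direction for each of these genes.

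The other head-group enzymes did not share that size or direction. Ugcg, which adds glucose in place of galactose and starts the gangliosides, spanned 7.76 to 8.83 log2 (median 8.46) in the bound and 9.10 to 10.55 (median 10.25) in the unbound arrays, a difference of −1.73 (SE 0.0885). The fractions did not overlap for it, in the opposite sense to Ugt8a. Sgms1, a sphingomyelin synthase, was higher in the bound fraction by 0.53 (SE 0.109, 16 of 18 animals), but its 4 probe sets ran from −0.56 to 0.55.

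**Figure D1:**
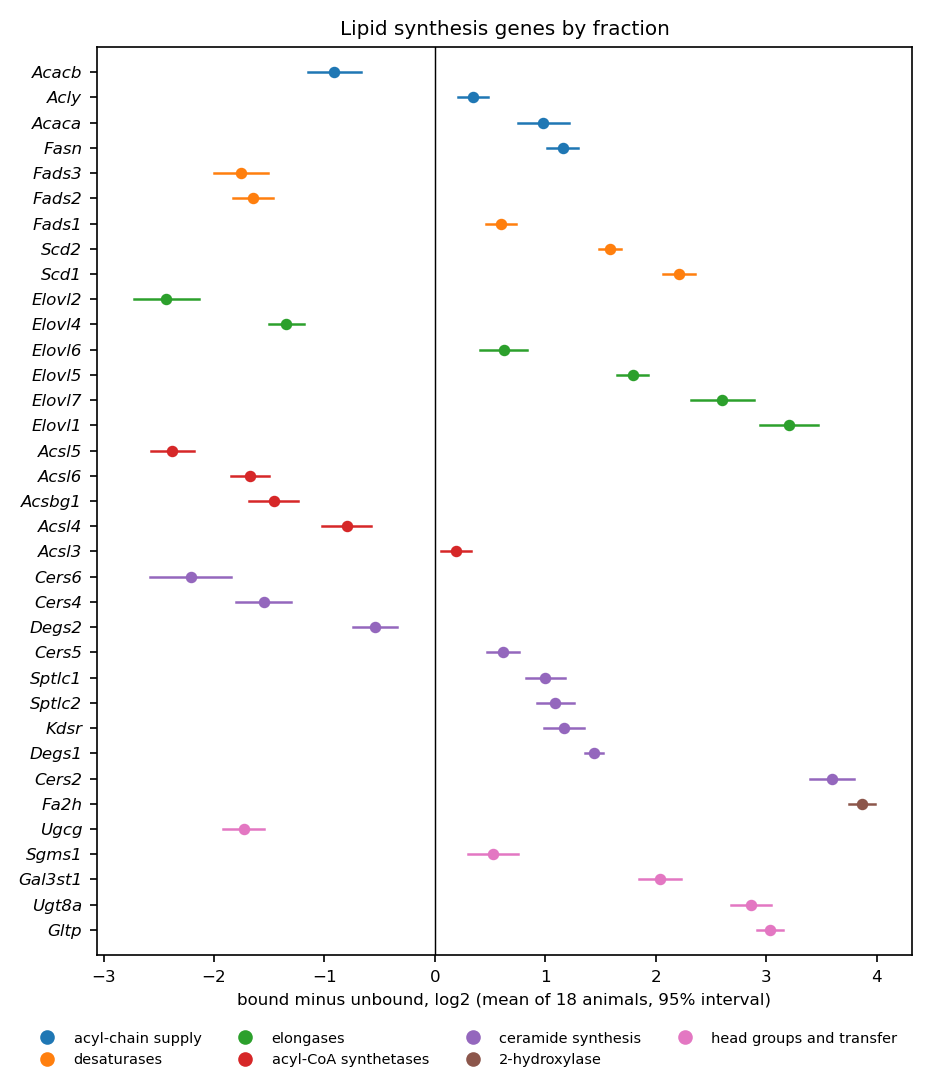
Difference between the bound and the unbound fraction for the 35 tested genes, in log2 units on the x axis, as the mean over 18 animals with its 95% interval, coloured by role. Elongases, desaturases and ceramide genes lie on both sides of 0, from Fa2h at 3.87 to Elovl2 at −2.43, whose bound signal lay under the filter value; with quantile normalization over all arrays, Degs2 moves to 0.17.

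Ceramide synthesis upstream of these steps was higher in the bound fraction for 6 of 9 tested genes. Serine palmitoyltransferase, the entry step, was higher in both measured subunits on their brightest probe sets, Sptlc1 (1.00, SE 0.0854) and Sptlc2 (1.09, SE 0.0793). Kdsr, the reductase that follows, was higher by 1.17 (SE 0.0882). For Sptlc2 and Kdsr only 1 of 3 probe sets was called higher, and the others were negative and not called (down to −0.26 and −0.12). The dihydroceramide desaturase Degs1 was higher by 1.44 (SE 0.0389), with bound levels of 12.01 to 12.37 log2 (median 12.26) and unbound levels of 10.59 to 11.14 (median 10.79). The ceramide synthases, which differ in the acyl chain they attach, were split. Cers2 and Cers5 (0.62, SE 0.0700) were higher and Cers4 (−1.55, SE 0.118) and Cers6 were lower. Cers6, which prefers shorter chains, spanned 4.67 to 7.69 log2 (median 6.48) in the bound and 7.00 to 9.01 (median 8.56) in the unbound arrays, a difference of −2.21 (SE 0.174) found in 18 of 18 animals although the ranges overlapped. Degs2, a relative of Degs1 that can also hydroxylate, was lower by 0.54 on the log2 scale, near the filter at 4.79 log2 in the bound arrays (difference −0.54, SE 0.0958).

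The split within families can be set beside the genes' promoters, taken from RefSeq on GRCm38.p6 from 250 bases before to 50 bases after each start. The E-box CACGTG, the CCAAT box and a sterol regulatory element, TCACNCCAC, were searched on both strands; none of these motifs contains another. Of 34 members with a promoter in the table, 6 held the E-box (17.6%, against 8.09% of all 27025 promoters), 20 held CCAAT (58.8% against 41.1%) and 1, Acsl1, held the sterol element (2.94% against 1.44%). The E-box occurred in 3 of 18 members higher in the bound fraction and in 2 of 13 that were lower. It was present in Cers2 and Cers6, a pair of ceramide synthases on opposite sides of the fraction comparison, and in the elongase Elovl5. Their stretches are printed because they show the same letters ahead of genes that differed in opposite directions, all on the plus strand with the motif in capitals.
Cers2 at chr3:95315041-95315086: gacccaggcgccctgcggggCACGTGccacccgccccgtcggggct
Cers6 at chr2:68861399-68861440: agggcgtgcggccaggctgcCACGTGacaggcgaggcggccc
Elovl5 at chr9:77917184-77917229: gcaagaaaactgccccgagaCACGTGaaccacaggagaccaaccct
The first base of the motif lies 129 bases before the start of Cers2, 22 before that of Cers6 and 161 before that of Elovl5. A match is a description of these letters and not a binding site.

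The elongases also divided, 4 higher and 2 lower. Elovl1, which extends saturated and monounsaturated chains, spanned 9.79 to 11.65 log2 (median 10.83) in the bound and 6.93 to 8.24 (median 7.57) in the unbound arrays. Its difference was 3.21 (SE 0.126, 9.23-fold), and its 4 probe sets gave 3.21 to 4.55. Elovl7, an elongase of saturated long chains, spanned 11.27 to 12.30 log2 (median 11.77) against 7.35 to 10.15 (median 9.36), a difference of 2.60 (SE 0.138, 6.08-fold), and its 6 probe sets gave 2.57 to 3.09. Neither gene's ranges overlapped between the fractions. Elovl5, an elongase of polyunsaturated chains, was higher by 1.79 (SE 0.0657) and Elovl6, which lengthens palmitate, by 0.62 (SE 0.103). Elovl2, which works on longer polyunsaturated chains, was also lower. It spanned 3.38 to 5.28 log2 (median 3.74) in the bound and 5.23 to 7.24 (median 6.40) in the unbound arrays, a difference of −2.43 (SE 0.141). Its bound mean lay under the bound filter value of 4.47, so its fold and its rank among the members are not given. Elovl4, which makes the longest chains, was lower by 1.34 on the log2 scale (difference −1.34, SE 0.0743).

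Among the desaturases, the enzymes that make monounsaturated chains were higher in the bound fraction, Scd1 by 2.21 (SE 0.0695) and Scd2 by 1.59 (SE 0.0479). Scd2 spanned 13.11 to 13.54 log2 (median 13.31) in the bound and 11.04 to 11.94 (median 11.76) in the unbound arrays, without overlap. Fads2, the entry desaturase for polyunsaturated chains, was lower (−1.65, SE 0.0878), and its 3 probe sets gave −3.10 to −1.65. Fads3, which acts on sphingoid bases, spanned 4.78 to 6.54 log2 (median 6.13) in the bound and 6.62 to 8.12 (median 7.77) in the unbound arrays, a difference of −1.76 (SE 0.115). Fads1 was higher by 0.60 (SE 0.0650) on its brighter probe set and lower on the dimmer one (−1.60), so that the mean of its probe sets turned the sign to −0.50 (adjusted p = 7.47e-05).

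The fatty acid supply was higher for Fasn, the synthase, with bound levels of 9.62 to 10.15 log2 (median 9.82), unbound levels of 7.99 to 9.38 (median 8.64) and a difference of 1.16 (SE 0.0669). Acaca, the cytosolic acetyl-CoA carboxylase, was higher by 0.98 (SE 0.110) and Acly by 0.34 (SE 0.0645). Acacb, the mitochondrial carboxylase that serves the control of fatty acid oxidation, was lower (−0.91, SE 0.114). Acyl-CoA synthetases, which activate free fatty acids, stood on the other side for 4 of 5 genes. Acsl5 spanned 7.23 to 8.94 log2 (median 8.15) in the bound and 10.20 to 10.78 (median 10.49) in the unbound arrays, a difference of −2.38 (SE 0.0927). Acsl6, which favours polyunsaturated chains, spanned 7.65 to 9.25 log2 (median 8.82) against 10.02 to 10.71 (median 10.49), a difference of −1.67 (SE 0.0838). Both genes were apart between the fractions in every array. Acsbg1 (−1.46, SE 0.106) and Acsl4 (−0.80, SE 0.105) were also lower, and Acsl3 was higher by 0.19 (SE 0.0640) in 13 of 18 animals. Its 3 probe sets ran from −0.75 to 0.19, and their mean turned the sign (−0.17, adjusted p = 0.00440). The mean of the probe sets also turned Cers5 (−0.23, adjusted p = 0.0218).

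Vigilance state moved few of these genes in the bound fraction. Between waking and sleep, 5 of 35 members were called (14.3%, against 9.47% of all genes), 3 higher in waking (4.68% of all genes were) and 2 lower (4.79%). The members' median difference was −0.03, against −0.01 over all genes. Each called member lay on the called side of the sleep mean in 6 of 6 arrays. Between sleep deprivation and sleep, 6 of 35 were called (17.1%, against 14.4%), 2 higher (7.53% of all genes were) and 4 lower (6.87%), with medians of 0.02 and −0.01. These shares lie near those of all genes and are not a result about the set. Both comparisons share the sleep animals, and between sleep deprivation and waking 1 member, Gltp, was called (2.86%, against 5.01% of all genes). Standard errors for members ran from 0.0535 (Gltp) to 0.331 (Cers6), with a median of 0.137. The 95% interval lay within 1 log2 unit of 0 for 34 of 35 members between waking and sleep and for 31 of 35 between sleep deprivation and sleep. With each probe set fitted on its own, the dimmer Acaca probe set was called in waking (0.58, against −0.10 on the brighter). In sleep deprivation 1 of 2 Elovl5 probe sets was called higher. Of all probe sets, 9.88% and 14.7% were called in these comparisons.

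**Figure D2:**
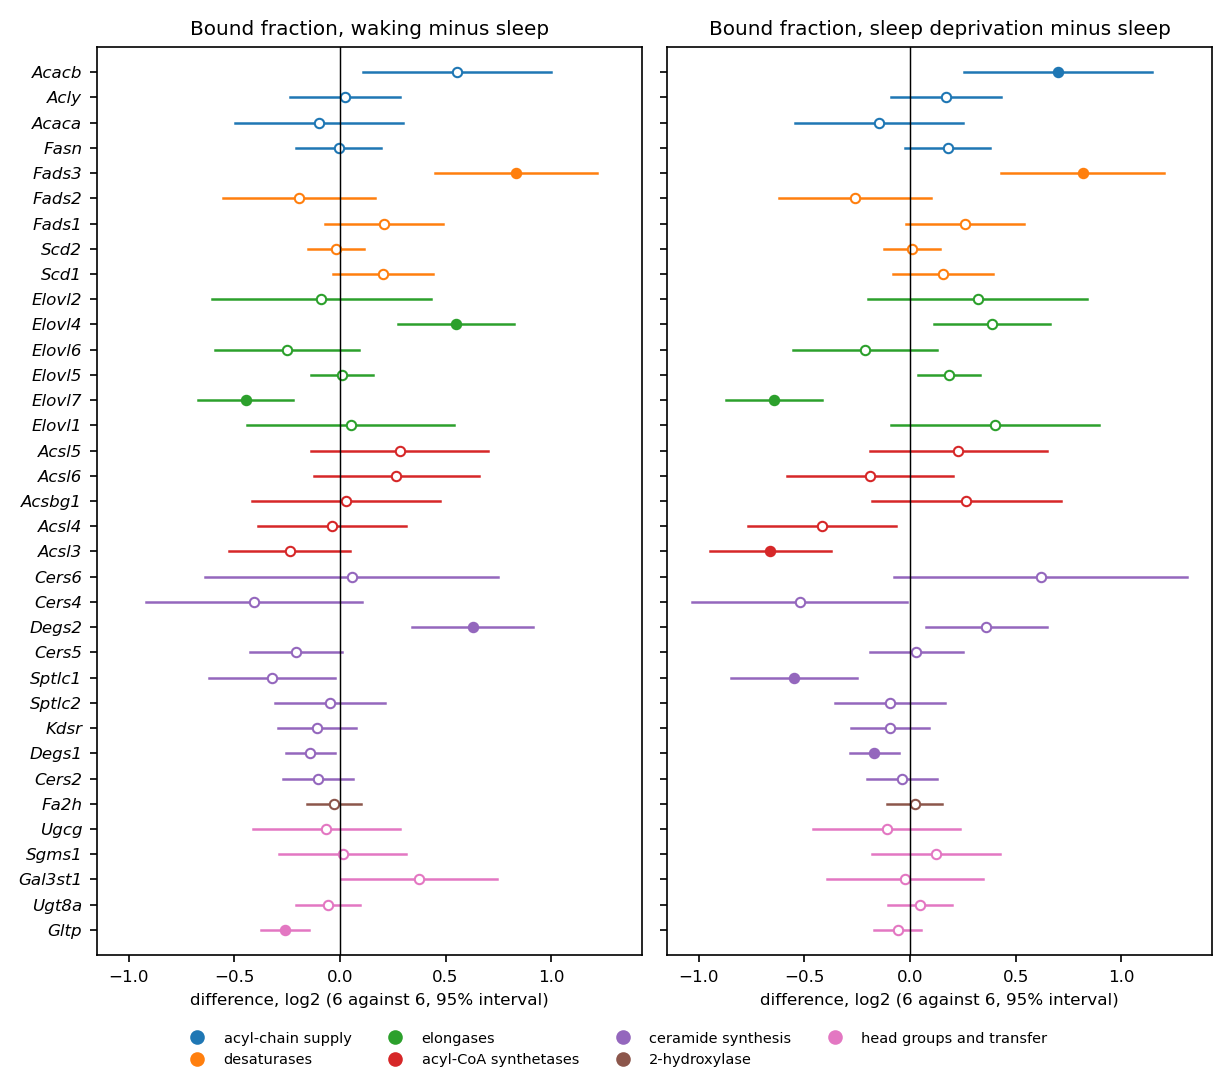
Differences in the bound fraction for the 35 tested genes, waking minus sleep and sleep deprivation minus sleep, in log2 units on the x axis with 95% intervals (6 arrays against 6); filled points were called and open points were not. Most intervals cover 0, 5 genes are called in the first panel and 6 in the second, and Elovl7 lies left of 0 in both.

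The myelin elongase Elovl7 fell in both wake conditions. On its brightest probe set the bound levels were 11.87, 12.09 and 12.30 log2 (lowest, median, highest of 6) in sleep, 11.27, 11.70 and 11.99 in waking and 11.35, 11.40 and 11.79 in sleep deprivation. Every sleep deprived array lay below every sleep array, while waking and sleep overlapped. The difference from sleep was −0.64 in sleep deprivation (SE 0.108, 1.56-fold lower, adjusted p = 0.000538) and −0.45 in waking (SE 0.108, 1.36-fold lower, adjusted p = 0.0137). Without the 3 animals set apart by sex-linked genes, the values were −0.62 (adjusted p = 0.00122) and −0.35 (adjusted p = 0.0778), so the waking call was lost. All 6 probe sets of Elovl7 were negative in both comparisons. In sleep deprivation they ran from −1.34 to −0.54 and 5 were called, and in waking they ran from −0.74 to −0.06 and 4 were called, where 14.7% and 9.88% of all probe sets were called. In the unbound arrays Elovl7 also fell in sleep deprivation. Levels there were 9.39, 9.77 and 10.15 log2 in sleep and 7.77, 8.54 and 9.24 in sleep deprivation, without overlap, a difference of −1.20 (SE 0.331, 2.29-fold lower, adjusted p = 0.0308). All 6 probe sets were negative there (−1.20 to −0.41), 1 of them called. The difference of the change between the fractions was not called on the brightest probe set (0.55, 95% interval −0.16 to 1.26, adjusted p = 0.371). Over the 6 probe sets it ran from −0.92 to 0.55. Of these, 5 were negative, 1 of them called lower, and only the brightest was positive.

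Acsl3, an acyl-CoA synthetase tied to lipid droplets and the endoplasmic reticulum, fell in the bound fraction in sleep deprivation and was not called in the unbound fraction. On its brightest probe set the bound levels were 11.14, 11.29 and 11.45 log2 in sleep, 10.72, 11.04 and 11.68 in waking and 10.22, 10.65 and 10.96 in sleep deprivation. Sleep and sleep deprivation did not overlap, and the waking range covered that of sleep and overlapped that of sleep deprivation. The difference between sleep deprivation and sleep was −0.66 (SE 0.136, 1.58-fold lower, adjusted p = 0.00297), and between waking and sleep it was −0.24 (95% interval −0.52 to 0.05, adjusted p = 0.296). Unbound levels were 10.57, 10.85 and 10.94 log2 in sleep and 10.61, 10.96 and 11.40 in sleep deprivation, a difference of 0.13 (SE 0.127, adjusted p = 0.587). The change differed between the fractions by −0.79 (SE 0.157, adjusted p = 0.00448), the single member called in that test (6.24% of all genes were). It held at −0.73 without the 3 animals set apart (adjusted p = 0.0182). All 3 probe sets were negative in bound sleep deprivation against sleep (−0.71 to −0.52), 2 of them called. All 3 were called in the fraction difference, from −0.99 to −0.74, where 6.38% of all probe sets were called. There 1 probe set each of Elovl4 and Elovl7 was also called lower.

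**Figure D3:**
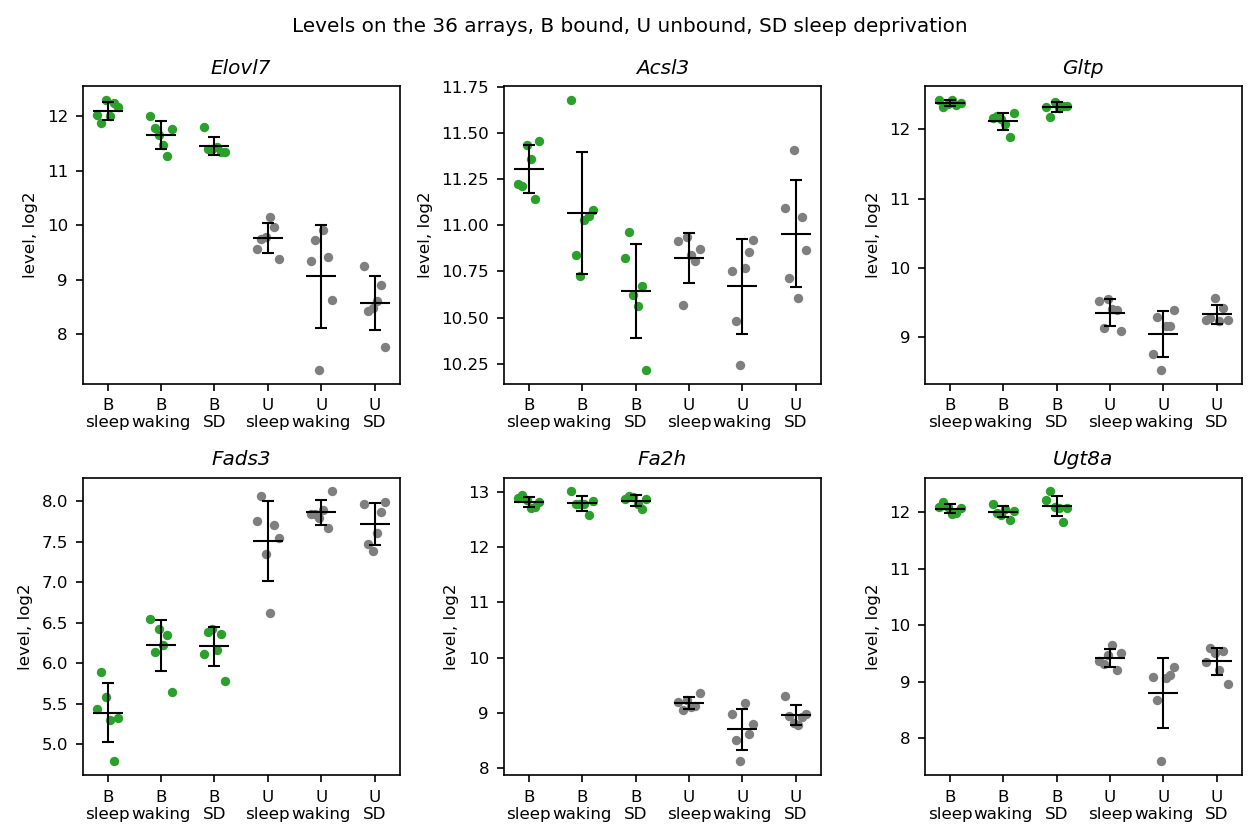
Levels of 6 genes in log2 units on the y axis, 1 point per array, in the bound (B, green) and unbound (U, grey) fractions of sleep, waking and sleep deprived (SD) animals, with the mean and SD of 6 arrays as black marks; each panel has its own axis range. Elovl7 and Acsl3 are lower in bound sleep deprivation than in bound sleep, Gltp dips in bound waking, and Fa2h and Ugt8a lie apart between the fractions in all states.

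Gltp was lower in waking than in both other states. Bound levels were 12.32, 12.37 and 12.43 log2 in sleep, 11.89, 12.16 and 12.23 in waking and 12.19, 12.34 and 12.40 in sleep deprivation. Every waking array lay below every sleep array, and waking overlapped with sleep deprivation. The fall against sleep was small (−0.26, SE 0.0535, adjusted p = 0.00479) and stayed called under each alternative run. Sleep deprivation exceeded waking by 0.20 (SE 0.0535, adjusted p = 0.0339), a call that was lost without the 3 animals set apart (0.15, adjusted p = 0.171). That call was also lost with either quantile normalization and with no intensity trend. Gltp has 1 probe set. The summed mature oligodendrocyte markers were also lower in bound waking (15.96 to 16.02 log2) than in bound sleep (16.11 to 16.14), without overlap, and their part in the Gltp value was not tested.

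The 4 members that rose in the bound fraction were Fads3, Elovl4, Degs2 and Acacb, each of which was lower there than in the unbound fraction (Degs2 with the opposite sign under quantile normalization over all arrays). Fads3 had bound levels of 4.78, 5.38 and 5.89 log2 in sleep, 5.65, 6.29 and 6.54 in waking and 5.78, 6.26 and 6.42 in sleep deprivation, and waking and sleep deprivation each overlapped with sleep. It rose by 0.83 (SE 0.184, adjusted p = 0.00762) in waking and by 0.82 (SE 0.184, adjusted p = 0.00564) in sleep deprivation. Its second tested probe set gave 0.73 and −0.15, neither called, and the mean of its probe sets gave 0.44 (adjusted p = 0.0834) and 0.02 (adjusted p = 0.949). Elovl4 had bound levels of 7.24, 7.46 and 7.83 log2 in sleep, 7.87, 8.06 and 8.27 in waking and 7.63, 7.85 and 8.16 in sleep deprivation. Waking lay wholly above sleep, with a rise of 0.55 (SE 0.131, adjusted p = 0.0124). The other Elovl4 probe set gave −0.14 in waking and was called at −0.71 in sleep deprivation, the opposite sign to the 0.39 of the brighter one (adjusted p = 0.0539), so the direction of Elovl4 depends on the probe set.

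Degs2 rose in waking by 0.63 (SE 0.137, adjusted p = 0.00689), from 4.24, 4.54 and 4.63 log2 in sleep to 4.72, 5.14 and 5.31, without overlap. In sleep deprivation it was at 4.57, 4.77 and 5.24 log2 and was not called (0.36, adjusted p = 0.0851). Acacb rose in sleep deprivation by 0.70 (SE 0.213, adjusted p = 0.0331), from 4.65, 4.99 and 5.49 log2 to 5.33, 5.57 and 6.38, with overlap, and waking gave 5.17, 5.45 and 6.40 log2 (0.55, adjusted p = 0.111). Both signals were low, averaging 4.79 log2 (Degs2) and 5.41 log2 (Acacb) over the bound arrays, where the filter value was 4.47 log2. Without the 3 animals set apart, Degs2 in waking (0.54, adjusted p = 0.0507) and Acacb in sleep deprivation (0.56, adjusted p = 0.0906) lost their calls.

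Of the 9 tested ceramide genes, 2 were called in bound sleep deprivation against sleep, Sptlc1 and Degs1, both lower. That is 22.2%, against 14.4% of all genes (6.87% lower), and with 9 genes it is not a result about the list. Sptlc1 had bound levels of 9.15, 9.64 and 9.90 log2 in sleep and 8.80, 8.98 and 9.41 in sleep deprivation, with overlap, a fall of 0.55 on the log2 scale (difference −0.55, SE 0.143, adjusted p = 0.0137). Waking levels were 8.95, 9.19 and 9.74 log2 and were not called against sleep (−0.32, adjusted p = 0.170). Its other probe sets gave −0.44 and 0.20 in sleep deprivation, neither called, and the mean of its probe sets changed sign (0.17, adjusted p = 0.356). Degs1 had levels of 12.29, 12.33 and 12.37 log2 in sleep, 12.04, 12.17 and 12.33 in waking and 12.01, 12.17 and 12.29 in sleep deprivation. Sleep deprivation did not overlap with sleep, and the fall was 1.12-fold (−0.17, SE 0.0557, adjusted p = 0.0476). Its second probe set also gave −0.17 and was not called (adjusted p = 0.138), and the call was lost without the intensity trend (adjusted p = 0.144).

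**Figure D4:**
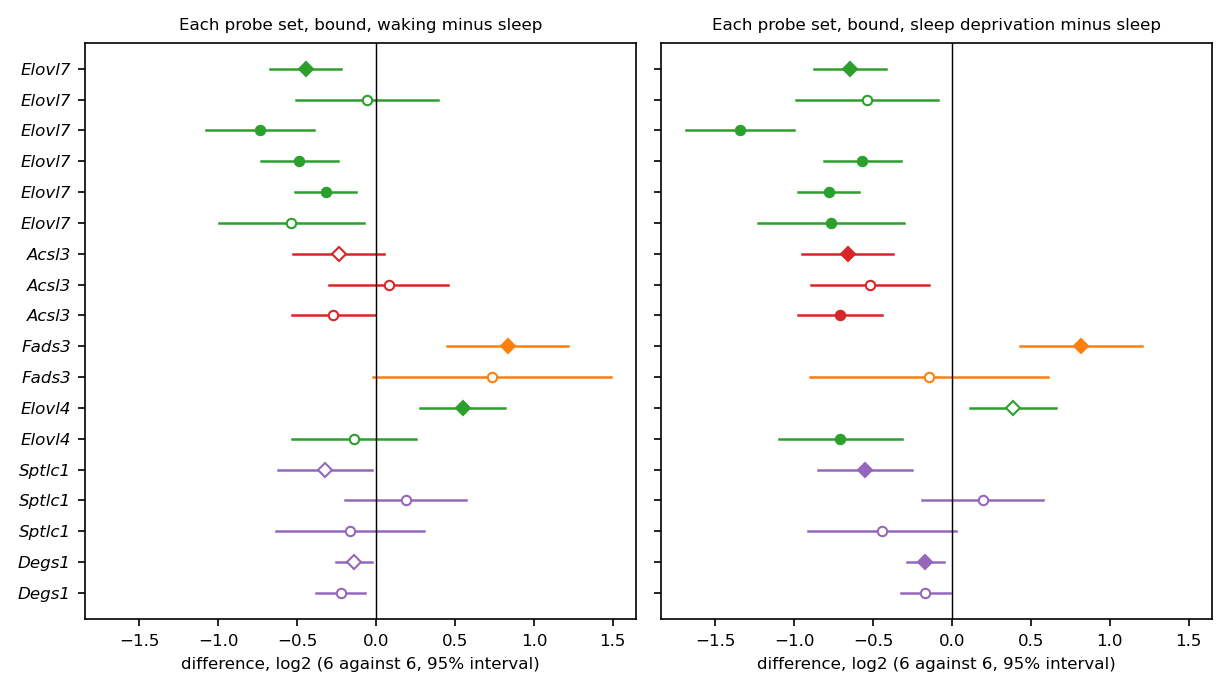
Differences in the bound fraction for every tested probe set of 6 genes, in log2 units on the x axis with 95% intervals; diamonds mark the probe set used for the gene, circles the others, and filled symbols were called over all probe sets. The 6 Elovl7 probe sets lie left of 0 in both panels and the 3 Acsl3 probe sets lie left of 0 in sleep deprivation, whereas those of Elovl4 lie on opposite sides.

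None of the 7 core genes of the myelin route (Fasn, Scd2, Elovl1, Cers2, Fa2h, Ugt8a, Gal3st1) was called by limma between states in the bound fraction, and 1, Gal3st1, had an unadjusted p under 0.05 (waking against each other state). Of all genes, 9.47% were called in waking against sleep, 14.4% in sleep deprivation against sleep and 5.01% in sleep deprivation against waking. With 7 genes, a count of 0 is near those shares and is not a result about the route. Fa2h lay at 12.70, 12.83 and 12.94 log2 in sleep, 12.58, 12.78 and 13.01 in waking and 12.68, 12.87 and 12.93 in sleep deprivation, with overlap between states. Its difference from sleep was −0.03 in waking (95% interval −0.16 to 0.10) and 0.02 in sleep deprivation (−0.11 to 0.15). Cers2 lay at 11.20, 11.23 and 11.27 log2 in sleep, 11.04, 11.12 and 11.27 in waking and 10.82, 11.23 and 11.45 in sleep deprivation, with overlap between states. Its differences from sleep in waking and sleep deprivation were −0.10 (−0.27 to 0.06) and −0.04 (−0.21 to 0.13). Ugt8a lay at 11.97, 12.08 and 12.17 log2 in sleep, 11.87, 12.01 and 12.15 in waking and 11.82, 12.08 and 12.37 in sleep deprivation, with overlap between states. Its differences from sleep in waking and sleep deprivation were −0.06 (−0.21 to 0.09) and 0.05 (−0.11 to 0.20). Scd2 lay at 13.21, 13.32 and 13.44 log2 in sleep, 13.16, 13.26 and 13.54 in waking and 13.11, 13.34 and 13.49 in sleep deprivation, with overlap between states. Its differences from sleep in waking and sleep deprivation were −0.02 (−0.15 to 0.11) and 0.01 (−0.12 to 0.14). Fasn lay at 9.62, 9.77 and 9.98 log2 in sleep, 9.66, 9.76 and 9.91 in waking and 9.64, 10.02 and 10.15 in sleep deprivation, with overlap between states. Its differences from sleep in waking and sleep deprivation were −0.01 (−0.21 to 0.19) and 0.18 (−0.02 to 0.38). For these 5 genes a change beyond 0.38 log2 lies outside the intervals. Elovl1 and Gal3st1 were less precise. Elovl1 lay at 9.79, 10.51 and 11.65 log2 in sleep, 10.25, 10.72 and 11.18 in waking and 10.80, 10.91 and 11.65 in sleep deprivation, with overlap between states. Its differences from sleep in waking and sleep deprivation were 0.05 (−0.44 to 0.54) and 0.40 (−0.09 to 0.89). Gal3st1 lay at 7.19, 7.48 and 8.14 log2 in sleep, 7.51, 7.95 and 8.31 in waking and 7.27, 7.52 and 7.95 in sleep deprivation, with overlap between states. Its differences from sleep in waking and sleep deprivation were 0.37 (0.0034 to 0.74, adjusted p = 0.199) and −0.02 (−0.39 to 0.35).

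The 7 mature oligodendrocyte markers summed to 16.11 to 16.14 log2 in sleep, 15.96 to 16.02 in waking and 16.01 to 16.13 in sleep deprivation. Between waking and sleep, 4 of them fell (Mag, Cnp, Aspa and Opalin, the last by 0.77 on the log2 scale) and Mobp rose by 0.21. Between sleep deprivation and sleep, Opalin and Aspa fell and Mbp and Mobp rose. Of the other markers, Gjb6 of astrocytes rose in waking (0.96) and in sleep deprivation (0.62), the endothelium markers Flt1 and Vwf went opposite ways in waking (0.47 and −0.42), and Lhfpl3 (−1.33), Slc17a7 (−1.0) and P2ry12 (−1.06) fell in sleep deprivation. Neuron markers summed to 14.39 to 14.74, 14.49 to 14.76 and 14.49 to 14.78 log2 in the same order of states, and astrocyte markers to 11.74 to 12.49, 11.90 to 12.47 and 11.92 to 12.49. Microglia markers summed to 7.41 to 8.37, 7.86 to 8.80 and 7.70 to 8.46 log2, and precursor markers to 8.62 to 9.48, 8.42 to 9.52 and 8.24 to 9.13. Endothelium markers summed to 6.92 to 7.57, 6.87 to 7.96 and 7.25 to 8.21 log2. The part of these shifts in the members' differences was not tested.

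In the unbound fraction the all-gene median was −0.09 for waking against sleep and 0.11 for sleep deprivation against waking. Between waking and sleep 2 members fell (5.71%, against 7.21% of all genes). Fads1 went from 11.15, 11.30 and 11.78 log2 to 10.80, 11.01 and 11.22, with overlap (−0.34, SE 0.0961, adjusted p = 0.0385). Acsl6 went from 10.54, 10.66 and 10.71 log2 to 10.02, 10.33 and 10.56, with overlap (−0.33, SE 0.0933, adjusted p = 0.0384). The other Acsl6 probe set had the opposite sign (0.092) and was not called. The Fads1 and Acsl6 calls were both lost when the unbound arrays were quantile normalized together (−0.25, adjusted p = 0.168, and −0.25, adjusted p = 0.143). Without the 3 animals set apart, the Fads1 call was also lost (−0.36, adjusted p = 0.0989). Fa2h just missed the threshold, at 9.06, 9.17 and 9.36 log2 in sleep and 8.12, 8.71 and 9.19 in waking (−0.48, SE 0.146, adjusted p = 0.0504). Ugt8a was at 9.21, 9.42 and 9.66 log2 in sleep and 7.59, 9.08 and 9.26 in waking (−0.62, SE 0.212, adjusted p = 0.0775). The mature oligodendrocyte markers summed to 14.16 to 14.35 log2 in unbound sleep and 14.13 to 14.25 in unbound waking, and their part in these values was not tested.

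Between sleep deprivation and sleep in the unbound arrays, 2 members were called (5.71%, against 7.82% of all genes), Elovl7 as above and Acsbg1, an acyl-CoA synthetase of astrocytes and other brain cells. Acsbg1 rose from 6.85, 7.07 and 7.42 log2 to 7.38, 7.50 and 8.02, with overlap (0.50, SE 0.147, adjusted p = 0.0435). The astrocyte marker Gjb6 rose with it by 1.32, the only called one of 7, and the summed astrocyte markers were at 13.96 to 14.09 log2 in sleep and 13.94 to 14.23 in sleep deprivation. Their part in the Acsbg1 value was not tested. Between sleep deprivation and waking, 1 member was called (2.86%, against 9.94% of all genes). Elovl4 was at 8.78, 9.04 and 9.13 log2 in waking and 9.21, 9.36 and 9.49 in sleep deprivation, without overlap (0.35, SE 0.105, adjusted p = 0.0418). It was not called with the unbound arrays quantile normalized together (0.22, adjusted p = 0.279) or without the 3 animals set apart (0.37, adjusted p = 0.0934). The change of Elovl4 between waking and sleep differed between the fractions by 0.67 (SE 0.182, adjusted p = 0.0362), the single member called in that test (5.34% of all genes were). This call was lost without the 3 animals set apart (0.71, adjusted p = 0.0948), and the other Elovl4 probe set gave 0.094 and was not called. With each probe set fitted on its own, 1 probe set each of Acaca, Fads1, Elovl5, Acsl4 and Cers4 was also called higher in that test. The share over all probe sets was not computed there.

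Genes around the pathway were taken from lists drawn up alongside the members. Whether their calls hold without the animals set apart by sex-linked genes, or under the other alternatives, was not tested gene by gene. No lipogenic regulator was called by limma in the bound fraction in either wake condition against sleep (0 of 13 tested, with 4 at an unadjusted p under 0.05 in each). Of all genes, 9.47% were called in waking and 14.4% in sleep deprivation, so with 13 genes this count is not a result about the list. Srebf1, the sterol-responsive activator of lipogenic genes, was higher in the bound than in the unbound fraction by 2.32 and gave 0.24 in waking (SE 0.194) and −0.36 in sleep deprivation (SE 0.194), neither called. Insig1, which holds that activator back, was higher in the bound fraction by 1.29. It fell in the unbound fraction in waking (−0.47, adjusted p = 0.00635) and in sleep deprivation (−0.46, adjusted p = 0.00550). Ppard, a lipid-sensing nuclear receptor, rose in unbound waking (0.67, adjusted p = 0.0283). Mbtps2, a protease that releases Srebf1, gave −0.52 and −0.42 in the bound fraction, neither called.

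In the bound fraction, 2 of 13 tested cofactor and elongation partners were called between waking and sleep (15.4%, against 9.47% of all genes) and 3 of 13 between sleep deprivation and sleep (23.1%, against 14.4%), all lower. Me1, the malic enzyme that makes NADPH for fatty acid synthesis, fell by 0.84 on the log2 scale in bound waking (difference −0.84, SE 0.164, adjusted p = 0.00321) and was at −0.57 in sleep deprivation (adjusted p = 0.0255). Mcat, of mitochondrial fatty acid synthesis, fell in both (−0.55, adjusted p = 0.0395, and −0.65, adjusted p = 0.0114). Acss2, which makes acetyl-CoA from acetate, fell in sleep deprivation (−0.53, adjusted p = 0.0369). In the unbound fraction 3 of 13 were called between sleep deprivation and waking, all higher (23.1%, against 9.94% of all genes). Most calls over all genes went the same way there, 8.45% higher and 1.49% lower. Slc25a1, the citrate carrier, gave −0.47 and −0.39 in the bound fraction, neither called, and was one of the 3 in the unbound fraction (0.66, adjusted p = 0.00943). Me1 was lower in the bound than in the unbound fraction by 1.03 on the log2 scale (difference −1.03).

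Of 17 tested genes of sphingolipid breakdown, 1 rose and 2 fell in bound waking (17.6% called, against 9.47% of all genes), and 1 fell in bound sleep deprivation (5.88%, against 14.4%). Galc, which removes galactose from galactosylceramide and is deficient in Krabbe disease, rose in bound waking (0.55, SE 0.133, adjusted p = 0.0135) and was lower in sleep deprivation than in waking (−0.52, adjusted p = 0.0293). Gm2a, the ganglioside activator protein, fell in waking (−0.39, SE 0.0828, adjusted p = 0.00553). Sphk2, a sphingosine kinase, fell in waking (−0.58, adjusted p = 0.0339) and in sleep deprivation (−0.63, adjusted p = 0.0149), and it also fell in the unbound fraction (−0.70 and −0.75). Asah1, the acid ceramidase, was lower in sleep deprivation than in waking (−0.70, adjusted p = 0.0467). Of 11 tested sphingolipid partners 0 were called in waking by limma (1 at an unadjusted p under 0.05), where 9.47% of all genes were called. In sleep deprivation Cerk, the ceramide kinase, rose (0.53, SE 0.156, adjusted p = 0.0274), and Sptssb, a small subunit of serine palmitoyltransferase, gave −0.65 (adjusted p = 0.0531). Sptssb averaged 3.83 log2 over the bound arrays, under the bound filter value of 4.47, and passed the filter only through its unbound mean of 6.32.

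Fatty acid oxidation had 1 called gene of 14 in bound waking (7.14%, against 9.47% of all genes). It was Cpt1a, the carnitine transferase that admits fatty acids to mitochondria, which fell (−0.92, SE 0.247, adjusted p = 0.0237) and gave −0.56 in sleep deprivation (adjusted p = 0.141). Cpt2, its inner-membrane partner, was higher in sleep deprivation than in waking (0.66, adjusted p = 0.0440). Among 9 carriers of fatty acids, Dbi, the acyl-CoA binding protein, fell in bound waking (−0.15, SE 0.0257, adjusted p = 0.00159) and was higher in sleep deprivation than in waking (0.19, adjusted p = 0.000518). The fatty acid binding protein Fabp5 fell in bound sleep deprivation (−0.36, SE 0.0804, adjusted p = 0.00549). Fabp7, the astrocyte and precursor form, gave −0.52 in bound waking (adjusted p = 0.123) and fell in unbound waking (−0.67, adjusted p = 0.00527).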

How the data were processed

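The deposited table holds 1 log2 value per probe set and array. Per the submitters' processing notes the authors used RMA; its version, and which arrays it normalized together, are not given in the sources used here. No further normalization was applied. Of 45101 probe sets, 34945 named 1 gene, 932 several and 9160 none, and 64 were array controls. One probe set per gene was kept (highest mean over 36 arrays). A gene was tested where its bound or unbound mean was at or above the 40th percentile over probe sets (4.47 log2 bound, 5.18 log2 unbound).

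Tests used limma 3.58.1 in R 4.3.3 (lmFit, eBayes with trend). State contrasts used a group-means model of a fraction's 18 arrays. Bound against unbound and fraction differences used each animal's bound minus unbound value, a pairing that comes from the design. Deviations of an animal's 2 arrays correlated by 0.0065 to 0.068. Called means a Benjamini-Hochberg adjusted p below 0.05 over all genes. The labels call the animals biological replicates. The scripts were tested on simulated data.

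Members and lists were chosen with earlier results of these data known. Named genes are members called in any state contrast or fraction difference, 7 core-route genes, the 6 most enriched and 6 most depleted members, and up to 4 genes per other list with the smallest p in a bound state contrast. Alternatives were quantile normalization of all arrays together or of each fraction, the mean of all probe sets, no filter, no trend, leaving out the animals set apart by sex-linked genes, and the replicate block; fitting each probe set on its own was added after seeing the data. The protein sequences planned for printing were not used here. Promoters came from RefSeq (GRCm38.p6).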

Additional observations from a re-analysis of the deposited data

Results flagged for a closer look

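Levels of 19 members were checked in each of 6 groups for an array that stood apart from the other 5, and 15 of 114 groups held one, where chance gives about 1 in 20. In the bound fraction, waking animal 1 was highest for Acacb (6.40 log2), Fads1 (12.34) and Acsl3 (11.68). Among bound sleep deprived arrays, animal 8 was highest for Elovl1 (11.65), animal 6 for Elovl7 (11.79) and animal 7 for Acsbg1 (6.81), and animal 10 was lowest for Acsl6 (7.65). In unbound sleep, animal 3 was highest for Fads1 (11.78) and Elovl4 (9.49), and animal 2 was lowest for Acsl3 (10.57). In unbound waking, animal 3, which is also one of the animals set apart by sex-linked genes, was lowest for Sptlc1 (7.86) and Ugt8a (7.59). In unbound sleep deprivation, animal 7 was lowest for Fads1 (11.02), animal 9 was lowest for Acsl6 (10.07) and animal 6 was highest for Fa2h (9.31).

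State changes differed between the fractions, by limma's test of that difference, for 5 named genes. Of all genes, 5.34% were called in this test for waking and 6.24% for sleep deprivation. Insig1, Fabp5 and Mbtps2 were named for their small p in bound state contrasts, which enter this difference, so the count is not a result about these genes. Between waking and sleep, the bound change exceeded the unbound one by 0.67 for Elovl4 (adjusted p = 0.0362) and by 0.58 for Insig1 (adjusted p = 0.00988). The Elovl4 call was lost without the animals set apart by sex-linked genes, and its other probe set was not called. Between sleep deprivation and sleep, the difference was −0.79 for Acsl3 (adjusted p = 0.00448), −0.34 for Fabp5 (adjusted p = 0.0491) and −0.96 for Mbtps2 (adjusted p = 0.0104).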

How the results depend on the processing

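Of the member differences recomputed under the alternatives, 642 kept their side of the threshold, 29 lost their call and 5 gained one. Another 5, all called in the main run, changed sign. Sign changes of small uncalled differences can lie among the 642. For Ugt8a in bound waking, for example, the 2 probe sets gave −0.057 and 0.074. With the mean of all probe sets, called differences changed sign for Fads1 (−0.50), Acsl3 (−0.17) and Cers5 (−0.23) between the fractions. Sptlc1 in bound sleep deprivation did so too (0.17). With quantile normalization over all arrays, the called difference of Degs2 between the fractions changed sign (0.17). The cause was not tested. Degs2, Acacb and Elovl2 had low bound means (4.79, 5.41 and 3.92 log2), where the bound filter value was 4.47 log2. The part of low signal in their values was not tested.

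Counts of members called moved as follows. Between bound waking and sleep, 3 were called without the animals set apart. Between bound sleep deprivation and waking, 0 were called by limma with quantile normalization over all arrays, within the fraction, with no intensity trend and without those animals (6, 6, 7 and 4 at an unadjusted p under 0.05), 3 with the mean of probe sets and 2 with no filter. Between unbound waking and sleep, 0 were called by limma with either quantile normalization and with the replicate block (6, 6 and 7 unadjusted), and 1 with no intensity trend or without the animals. Between unbound sleep deprivation and waking, 0 were called by limma without the animals (6 unadjusted). For the fraction difference of waking, 0 were called by limma with quantile normalization over all arrays or without the animals (8 and 7 unadjusted), 4 with the mean of probe sets, 3 with no filter and 2 with no replicate block.

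Over all genes, dropping the filter, which also enlarges the number tested, gave 2819, 3551 and 2124 calls for bound waking against sleep, sleep deprivation against sleep and sleep deprivation against waking, 2382, 2482 and 2771 for the same unbound comparisons, and 2071 and 2253 for the fraction differences of waking and sleep deprivation. Leaving out the animals, with fewer samples, gave 695 (bound waking against sleep), 237 (bound sleep deprivation against waking), 529 (unbound waking against sleep), 717 (unbound sleep deprivation against waking) and 383 (fraction difference of waking). Unbound sleep deprivation against waking gave 584 and 582 with quantile normalization over all arrays and within the fraction. The replicate block gave 464 for unbound waking against sleep. Sleep and waking samples of 1 number are different animals and share only that number; their deviations correlated by −0.021 to 0.085 in the bound and 0.0054 to 0.085 in the unbound arrays, and 3 and 2 of 6 correlated best with their own number.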
